A study of Rattus norvegicus with 28 samples.

Results

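C1ql1, C1ql2, C1ql3, Cbln1, Cbln2 and Cbln4 are secreted synaptic organizers of the C1q-like and cerebellin families, and their RNA was followed here in the rat prefrontal cortex. They are 6 of the 36387 genes in the deposited count table and were found there by gene name. The set was chosen by its measured values: it was drawn up because C1ql2 differed in CPM between psilocybin at 1 mg/kg given alone and the same dose given after ketanserin, so that contrast and every level of C1ql2 in those 2 groups are described here without a test. All 6 passed the filter on low counts. The remaining genes of the 2 families did not: C1ql4 had 0 to 8 counts and Cbln3 0 to 4 counts in any library.

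Adult male Sprague-Dawley rats, an outbred stock, were 8 weeks old on arrival and received 2 intraperitoneal injections. The first was ketanserin, an antagonist of the serotonin 2A receptor, or its vehicle of 5% Tween-80, and the second was psilocybin, a prodrug of the serotonin receptor agonist psilocin, or saline. The 7 groups were psilocybin at 1 mg/kg after vehicle, psilocybin at 3 mg/kg after vehicle, ketanserin at 1 mg/kg and saline, ketanserin at 3 mg/kg and saline, ketanserin and psilocybin each at 1 mg/kg, both drugs each at 3 mg/kg, and vehicle and saline, called vehicle below. The prefrontal cortex was taken 24 h later, and poly-A RNA was sequenced from 4 biological replicates in each group. Their numbers name the libraries and pair none of them. In a combination the dose of both drugs differs between 1 and 3 mg/kg, so the effect of either dose change alone cannot be read from it.

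C1q-like and cerebellin proteins end in a globular domain of the kind found in complement C1q and are released into the synaptic cleft. Many of them bind neurexins on the presynaptic side and a receptor on the postsynaptic side, among them the adhesion receptor Adgrb3, kainate receptor subunits and the delta glutamate receptors, and so help to form or keep a synapse. Most of this is known from mice, above all from the cerebellum and the hippocampal mossy fibres, where some of these proteins are abundant.

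The promoters of C1ql3, Cbln2 and C1ql2 are shown because these genes were the most highly expressed of the set per length, or, in the case of C1ql2, the gene the set was drawn up around. The sequences are from RefSeq on the assembly GRCr8 and run 5′ to 3′ from 250 bases before to 50 bases after the annotated start; 4 of the 6 members matched an entry. Searched on both strands were CRE (TGACGTCA), CRE core (TGACG), AP-1 (TGANTCA), EGR (GCGNGGGCG), E-box (CAGCTG), GC box (GGGCGG) and TATA box (TATAAA), of which the CRE core lies within the CRE; capitals mark matches.
C1ql2: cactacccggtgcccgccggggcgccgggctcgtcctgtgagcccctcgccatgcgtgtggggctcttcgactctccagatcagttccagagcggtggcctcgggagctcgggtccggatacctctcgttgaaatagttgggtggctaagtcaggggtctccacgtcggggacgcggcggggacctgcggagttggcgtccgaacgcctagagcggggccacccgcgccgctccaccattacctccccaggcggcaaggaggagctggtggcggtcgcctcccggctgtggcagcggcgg
C1ql3: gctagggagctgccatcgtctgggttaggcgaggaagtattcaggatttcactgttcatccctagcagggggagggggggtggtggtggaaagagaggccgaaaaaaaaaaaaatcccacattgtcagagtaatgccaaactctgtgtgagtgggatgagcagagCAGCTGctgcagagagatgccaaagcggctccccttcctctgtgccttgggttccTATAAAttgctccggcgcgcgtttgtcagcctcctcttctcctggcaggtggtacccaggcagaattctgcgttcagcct
Cbln2: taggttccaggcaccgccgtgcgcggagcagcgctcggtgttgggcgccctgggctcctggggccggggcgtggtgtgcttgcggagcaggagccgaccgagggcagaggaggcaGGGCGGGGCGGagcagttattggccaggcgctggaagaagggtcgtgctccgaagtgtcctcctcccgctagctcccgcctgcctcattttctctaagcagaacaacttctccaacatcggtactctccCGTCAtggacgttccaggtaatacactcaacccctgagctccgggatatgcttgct

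The C1ql2 window lies at chr13:34023652-34023951 on the plus strand and held none of the 7 motifs. It had 70.3% G and C bases, above 92.1% of the 33469 rat promoters of the same length, whose median was 51.7%. The C1ql3 window, at chr17:81038195-81038494 on the minus strand, had an E-box 85 bases and a TATA box 30 bases before the start. The Cbln2 window, at chr18:82215953-82216252 on the plus strand, had 2 overlapping GC boxes 135 and 130 bases before the start and a CRE core 6 bases before it. Cbln4 also had 2 overlapping GC boxes, 128 and 123 bases before its start. Among all promoters, 15.1% held the E-box, 14.2% the TATA box, 33.1% the GC box and 21.2% the CRE core, so most of these matches are common ones. The CRE was found in 1.83%, the AP-1 motif in 7.33% and the EGR motif in 4.98% of promoters, and in none of the 4 members.

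Libraries held 12783067 to 18538414 counts (median 15366977.5). Cortical markers reported here were present in every library: the excitatory neuron gene Slc17a7 had a median of 2470 CPM and Neurod6, a transcription factor of cortical excitatory neurons, 110 CPM (CPM, counts scaled to library size with trimmed-mean factors). The 4th library of ketanserin and psilocybin at 3 mg/kg stood apart, with 19602 genes at 0 counts against 15344 to 16657 in the other 27. Fold changes of C1ql3 in that group are given with and without it. Values of partner and other genes, and levels over all libraries, are given only with it. In bulk tissue, fewer cells of a type and less RNA per cell cannot be told apart.

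**Figure D1:**
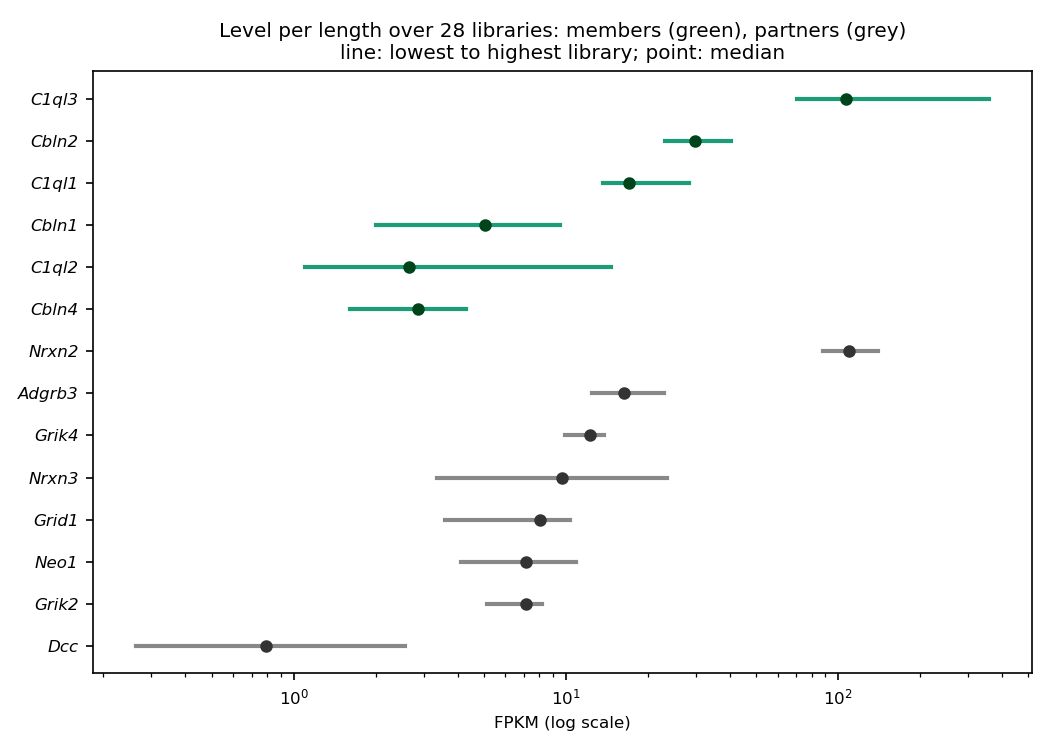
Level per gene length (FPKM, log axis) over the 28 libraries for the 6 members in green and 8 partner genes in grey; lines run from the lowest to the highest library and points are medians. C1ql3 was the most abundant member, between 70.8 and 360 FPKM, and C1ql2 and Cbln4 lay lowest.

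Per gene length, the members covered a wide range. C1ql3, which binds Adgrb3 at excitatory synapses in mice, averaged 115 ± 52.9 FPKM (SD over 28 libraries) in the authors' deposited values. That mean includes 360 FPKM in replicate 4 of the combination at 3 mg/kg, and the median was 107 FPKM. Cbln2, a ligand of neurexins and of the delta receptor Grid1, followed with 30.1 ± 3.98 FPKM, and C1ql1, the ligand of Adgrb3 at climbing fibre synapses in the mouse cerebellum, with 18.1 ± 3.51 FPKM. Cbln1, a neurexin ligand known from parallel fibre synapses in the mouse cerebellum, averaged 5.14 ± 1.68 FPKM. C1ql2, which in mice gathers kainate receptors at mossy fibre synapses together with C1ql3, averaged 3.47 ± 2.91 FPKM, and Cbln4, a neurexin ligand that also binds Dcc and Neo1, averaged 2.87 ± 0.641 FPKM. This order held at its upper end within single libraries: C1ql3 was above Cbln2 in 28 of 28, Cbln2 above C1ql1 in 27 and C1ql1 above Cbln1 in 28. At the lower end it did not separate the genes, with Cbln1 above C1ql2 in 24 libraries and C1ql2 above Cbln4 in 15.

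The partners were present as well. Among the neurexins given here, Nrxn2 averaged 112 FPKM and Nrxn3 10.7 FPKM, although the gene record used for Nrxn3 is short, at 1293 bases. Among the postsynaptic partners, Adgrb3 averaged 16.5 FPKM, the kainate receptor subunits Grik4 and Grik2 12.3 and 6.94 FPKM, and the delta receptor Grid1 7.92 FPKM. The netrin receptors Neo1 and Dcc averaged 7.26 and 0.838 FPKM.

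In the rn6 assembly, the members lie on 6 chromosomes. C1ql1 (ENSRNOG00000002963) is at chr10:91040005-91047177, minus strand, C1ql2 (ENSRNOG00000046863) at chr13:36378356-36380302, plus strand, and C1ql3 (ENSRNOG00000017459) at chr17:80314186-80320681, minus strand. Cbln1 (ENSRNOG00000000010) is at chr19:20607507-20611316, plus strand, Cbln2 (ENSRNOG00000013654) at chr18:83777665-83782930, plus strand, and Cbln4 (ENSRNOG00000004372) at chr3:170033166-170040953, minus strand. The count for each is over the whole gene.

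The members differed in how much they varied over the 28 libraries. C1ql3 had a coefficient of variation of 45.1%, against a median of 12.3% among genes of a similar level, and Cbln1 32.7% against 19.8%. The C1ql3 value includes 274 CPM in replicate 4 of the combination at 3 mg/kg, while its next highest library had 128 CPM. It is not given without that replicate. C1ql1 at 19.2%, Cbln2 at 13.4% and Cbln4 at 22.2% lay close to the medians of their levels, which were 16.5%, 12.5% and 23.6%. C1ql2 had 83.9%, a value that includes the libraries that chose the gene and is not set against other genes.

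**Figure D2:**
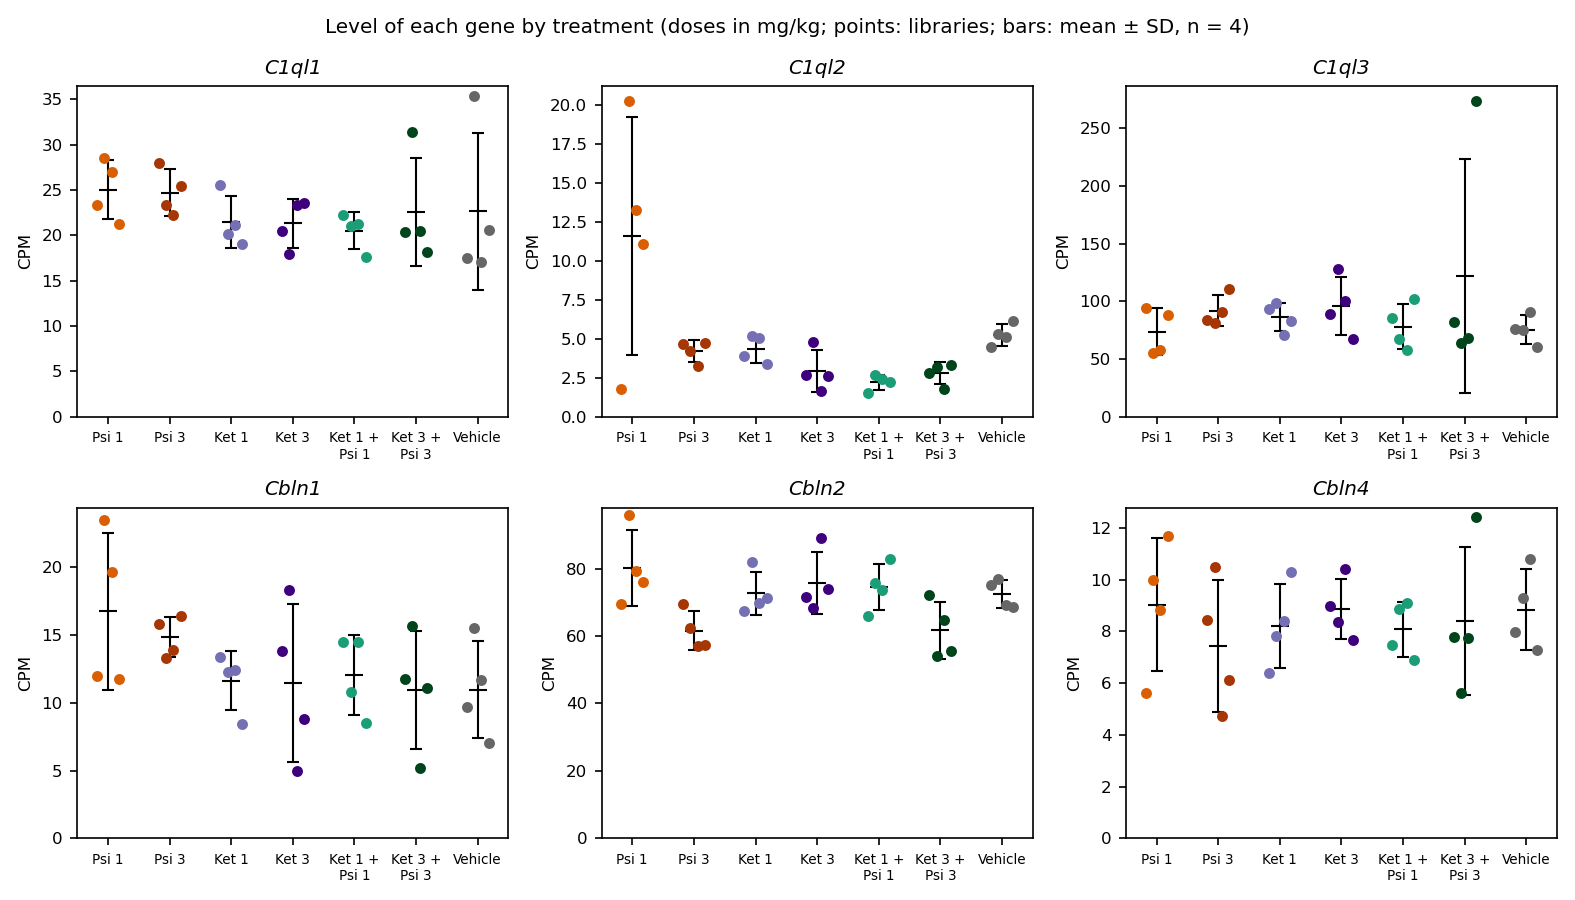
CPM of the 6 members in each library (points), with the group mean and SD (bars, n = 4), for psilocybin (Psi), ketanserin (Ket), their combinations and vehicle, doses in mg/kg. C1ql2 is high in 3 of the 4 libraries of psilocybin at 1 mg/kg, and C1ql3 in 1 library of the combination at 3 mg/kg.

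The high C1ql2 values were those of psilocybin at 1 mg/kg, and they were uneven. C1ql2 had 1.77, 20.3, 13.3 and 11.1 CPM in the 4 libraries of psilocybin at 1 mg/kg, against 4.46, 5.34, 5.14 and 6.17 CPM in the vehicle libraries. So 3 of those 4 libraries lay above every vehicle library and the other, replicate 1, below all of them. That library rests on 27 reads, with a 95% exact Clopper-Pearson interval of 1.16 to 2.57 CPM, and the highest on 296 reads, with 18.1 to 22.8 CPM; these intervals cover counting error only. The group mean was 11.6 ± 7.65 CPM with psilocybin at 1 mg/kg and 5.28 ± 0.704 CPM with vehicle (SD, n = 4 each), a fitted log2 fold change of 1.14. It was 0.72 without the highest library, replicate 2, and 1.48 without replicate 1. No test or interval of the fold change is given, since these libraries chose the gene.

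With ketanserin before it, the same psilocybin dose went with low C1ql2 in every library. The combination at 1 mg/kg had 1.53, 2.67, 2.43 and 2.22 CPM, a mean of 2.21 ± 0.491 CPM, against 11.6 ± 7.65 CPM with psilocybin at 1 mg/kg (SD, n = 4 each). The log2 fold change between them, the contrast that chose the set, was -2.39, and -1.97 without replicate 2 of psilocybin alone. The ranges overlapped, since the low replicate of psilocybin alone lay within the range of the combination. Among all 17404 genes tested in this contrast, 0% were called at an adjusted p under 0.05 and 4.13% had an unadjusted p under 0.05 (edgeR quasi-likelihood test, Benjamini-Hochberg adjustment).

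The combination at 1 mg/kg was also low against vehicle and against ketanserin alone. Its 4 libraries lay below all 4 vehicle libraries, with a log2 fold change of -1.25. In this comparison 0.649% of all genes were lower without overlap. The 4 libraries also lay below those of ketanserin at 1 mg/kg alone, which had 3.88, 5.16, 5.06 and 3.37 CPM. The log2 fold change was -0.98, and 1.56% of all genes were lower without overlap there. These comparisons use the combination libraries that chose the gene and are descriptions. The same holds for the drug interaction at 1 mg/kg, the change with psilocybin after ketanserin minus its change after vehicle, which was -2.12 for C1ql2.

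The 3 mg/kg groups had no part in the choice of C1ql2, and there the gene was tested. The spread in these tests came from 1 fit over all 28 libraries. Their SEs and intervals therefore also draw on the libraries that chose the gene. C1ql2 had 2.84, 3.18, 1.80 and 3.35 CPM in the combination at 3 mg/kg, 4.69, 4.23, 3.26 and 4.76 CPM with psilocybin at 3 mg/kg, and 2.67, 4.82, 1.66 and 2.64 CPM with ketanserin at 3 mg/kg. None of these 12 libraries lay above the vehicle range, and all 4 of the combination lay below it. The combination averaged 2.79 ± 0.695 CPM and vehicle 5.28 ± 0.704 CPM (SD, n = 4 each), a log2 fold change of -0.92 (SE 0.414, 95% interval -1.77 to -0.07). After adjustment over all 17404 genes this did not pass (adjusted p = 0.999, edgeR quasi-likelihood test with Benjamini-Hochberg adjustment), and 0.741% of all genes were lower without overlap.

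Against psilocybin at 3 mg/kg alone, which averaged 4.23 ± 0.69 CPM, C1ql2 in the combination differed by -0.60 on the log2 scale (SE 0.415, 95% interval -1.46 to 0.25, edgeR adjusted p = 0.693). The corresponding difference at 1 mg/kg, given above, was a description from the choosing contrast, and the 2 doses were not tested against each other. Psilocybin at 3 mg/kg differed from vehicle by -0.32 (SE 0.407, 95% interval -1.16 to 0.52, edgeR adjusted p = 0.997), and no library of it was above 4.76 CPM. Ketanserin at 3 mg/kg, at 2.95 ± 1.33 CPM, differed from vehicle by -0.83 (SE 0.413, 95% interval -1.68 to 0.02, edgeR adjusted p = 1.0), and ketanserin at 1 mg/kg, at 4.37 ± 0.881 CPM, by -0.27 (SE 0.408, adjusted p = 1.0). The interaction at 3 mg/kg was 0.23 (SE 0.584, 95% interval -0.97 to 1.43, edgeR adjusted p = 0.993). Across the 5 groups that did not choose the gene, a joint edgeR test gave an adjusted p of 0.999.

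**Figure D3:**
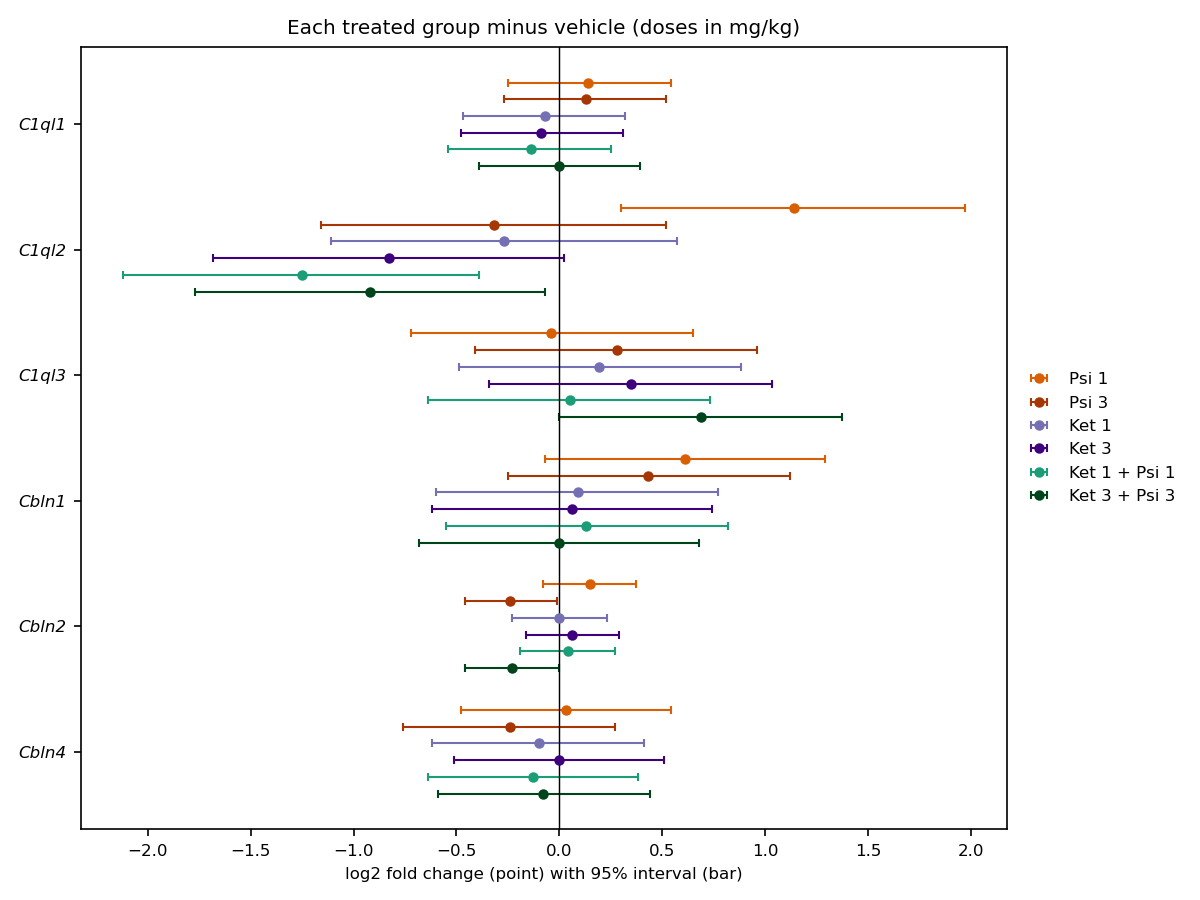
Fitted log2 fold change of each member in each treated group minus vehicle (points) with 95% intervals (bars), doses in mg/kg; positive values are higher in the treated group. C1ql2 with psilocybin at 1 mg/kg (1.14) lies highest and C1ql2 in the combination at 1 mg/kg (-1.25) lowest. Both points use libraries that chose the gene, so their bars make no allowance for that choice and are no test.

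Markers of other cells and regions were read in the same libraries. In replicates 1 to 4 of psilocybin at 1 mg/kg, where C1ql2 was low in the first and high in the others, the summed level of 5 mature oligodendrocyte markers was 2740, 6870, 7790 and 4240 CPM, and that of 5 oligodendrocyte precursor markers 185, 255, 264 and 252 CPM. Both sums were lowest in the library with low C1ql2. The 6 interneuron markers summed to 779, 1070, 931 and 785 CPM, in the same order as C1ql2, and the 5 cerebellum markers to 32.8, 34.5, 39.1 and 41.0 CPM. Of the cerebellum markers, Pcp2 and Cbln3 had a median of 0 and Gabra6 of 0.463 CPM. That sum was therefore nearly all Calb2 and Zic1, with medians of 17.5 and 18.3 CPM. Excitatory neuron markers, at 3120, 2980, 2740 and 2680 CPM, were highest in replicate 1, as were deep layer markers at 222, 201, 187 and 172 CPM, microglia markers at 243, 203, 220 and 207 CPM and claustrum markers at 519, 401, 427 and 498 CPM. So sums moved both with and against C1ql2 in this group. The upper layer, astrocyte, striatum and olfactory bulb sums were neither lowest nor highest in replicate 1 alone. The 6 striatum markers summed to 340, 410, 340 and 271 CPM. Their sum in replicate 2, where C1ql2 was highest, was the highest of all 28 libraries, and that in replicate 4 the lowest of the group. The median striatum sum was 340 CPM with psilocybin at 1 mg/kg, 281 CPM with vehicle and 275 CPM in the combination at 1 mg/kg. Mature oligodendrocyte markers summed to 4180, 7620, 3460 and 3030 CPM in the combination at 1 mg/kg and to 2500, 7260, 3410 and 4710 CPM in vehicle, where C1ql2 varied little. The 4 thalamus markers summed to 29.6, 42.5, 38.7 and 33.1 CPM in psilocybin at 1 mg/kg, lowest in the same library, and the 4 dentate gyrus markers to 5.1, 6.11, 4.24 and 7.54 CPM, with Lct and Tdo2 at a median of 0. The part of tissue make-up in the C1ql2 values was not tested.

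The genes whose levels followed C1ql2 most closely over the 28 libraries were Penk, the precursor of enkephalin peptides, Ccdc136, Fam19a2, Sipa1 and Hmg20b. Penk had a Pearson r of 0.71 and a Spearman rho of 0.65 on log2 CPM among 13860 genes compared, and an r of 0.57 without the 2 libraries farthest from the median C1ql2, replicates 2 and 3 of psilocybin at 1 mg/kg. Ccdc136 and Fam19a2 each had an r of 0.69, which was 0.46 without those libraries. Sipa1 and Hmg20b each had an r of 0.65, and 0.59 and 0.60 without them. These are descriptions over libraries that share their dissection, depth and treatment, and no p is attached.

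Penk itself had 65.8, 121, 92.5 and 94.3 CPM with psilocybin at 1 mg/kg, 53.3 to 68.7 CPM in the combination at 1 mg/kg and 76.9, 82.8, 59.4 and 102 CPM with vehicle. Its lowest library within psilocybin at 1 mg/kg was the one with low C1ql2, and its highest the one with the highest C1ql2. Penk was picked for its r with C1ql2 over these same libraries, so this order is no separate evidence. The psilocybin and vehicle ranges of Penk overlapped.

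**Figure D4:**
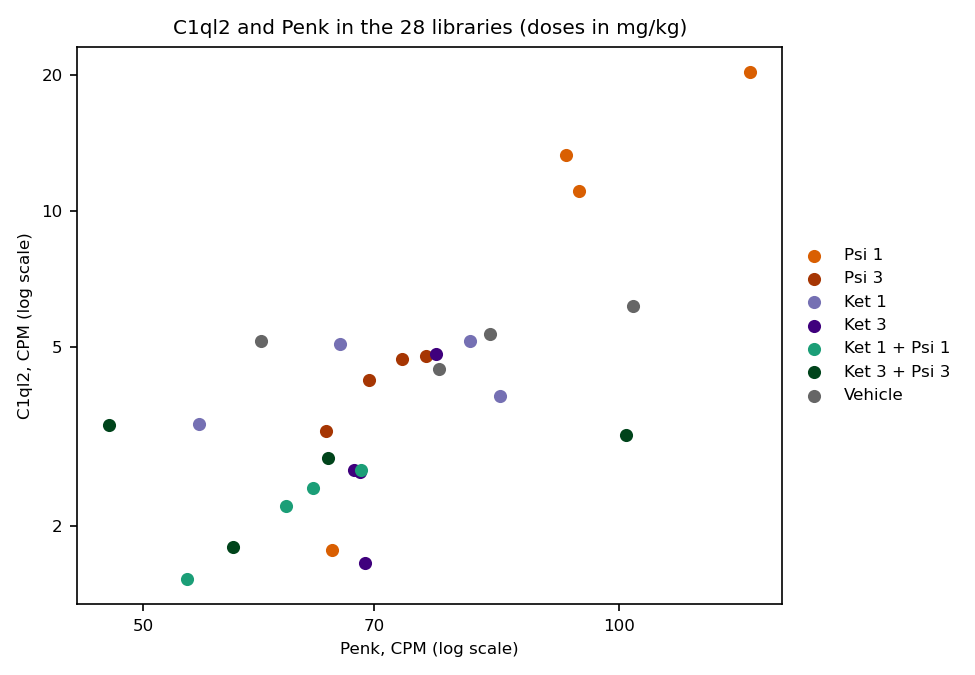
C1ql2 against Penk in the 28 libraries (CPM, both axes logarithmic), coloured by group, with psilocybin (Psi) and ketanserin (Ket) doses in mg/kg. The 3 libraries with C1ql2 above 10 CPM are all from psilocybin at 1 mg/kg, and the Pearson r over all libraries was 0.71.

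Cbln1 was highest in the psilocybin groups, but no comparison of it passed the test. It had 12, 23.5, 19.7 and 11.8 CPM with psilocybin at 1 mg/kg, 15.8, 13.3, 13.9 and 16.4 CPM with psilocybin at 3 mg/kg, and 9.67, 15.5, 11.7 and 7.06 CPM with vehicle. Both psilocybin groups overlapped vehicle. The log2 fold change against vehicle was 0.61 (SE 0.331, 95% interval -0.07 to 1.29, edgeR adjusted p = 1.0) at 1 mg/kg and 0.43 (SE 0.331, 95% interval -0.25 to 1.12, adjusted p = 0.997) at 3 mg/kg. The combination at 3 mg/kg averaged 11.0 ± 4.35 CPM and psilocybin at 3 mg/kg 14.9 ± 1.49 CPM (SD, n = 4 each), a difference of -0.44 (SE 0.331, 95% interval -1.12 to 0.24, edgeR adjusted p = 0.693). At 1 mg/kg the combination averaged 12.1 ± 2.95 CPM and psilocybin alone 16.8 ± 5.82 CPM, a difference of -0.47 (95% interval -1.15 to 0.20) in the contrast that chose the set. The interactions were -0.56 at 1 mg/kg and -0.50 at 3 mg/kg (edgeR adjusted p = 0.938 and 0.993). Cbln1 and C1ql2 had a Pearson r of 0.53 over the 28 libraries, and 0.33 without the 2 libraries with the highest C1ql2.

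Cbln2 was lowest in the 2 groups that received psilocybin at 3 mg/kg. It had 69.4, 62.5, 57.0 and 57.4 CPM with psilocybin at 3 mg/kg, and 72.2, 54.2, 64.9 and 55.5 CPM in the combination at 3 mg/kg, against 75.2, 76.9, 69.2 and 68.7 CPM with vehicle. In each of the 2 treated groups, 3 libraries lay below every vehicle library. Psilocybin at 3 mg/kg averaged 61.6 ± 5.76 CPM and vehicle 72.5 ± 4.17 CPM (SD, n = 4 each), a log2 fold change of -0.24 (SE 0.111, 95% interval -0.46 to -0.01, edgeR adjusted p = 0.997). The combination at 3 mg/kg averaged 61.7 ± 8.46 CPM, a difference from vehicle of -0.23 (SE 0.111, 95% interval -0.46 to -0.00, edgeR adjusted p = 0.999), and from ketanserin at 3 mg/kg alone of -0.30 (SE 0.111, 95% interval -0.52 to -0.07, adjusted p = 1.0). None of these passed after adjustment.

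The 4 Cbln2 values of psilocybin at 3 mg/kg also lay below those of psilocybin at 1 mg/kg, which were 69.4, 96.0, 79.4 and 76.1 CPM, with no overlap, although the closest libraries, replicate 1 of each dose, both round to 69.4 CPM. The log2 fold change of the higher dose against the lower was -0.38 (SE 0.111, 95% interval -0.61 to -0.15, edgeR adjusted p = 0.984), and 1.25% of all genes were lower without overlap in this comparison. With ketanserin alone Cbln2 averaged 72.6 ± 6.51 CPM at 1 mg/kg and 75.8 ± 9.16 CPM at 3 mg/kg, and in the combination at 1 mg/kg 74.5 ± 6.9 CPM (SD, n = 4 each). All 3 of these groups overlapped vehicle.

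C1ql3 stood out in a single library. The combination at 3 mg/kg had 81.9, 64.0, 67.9 and 274 CPM, against 83.8, 81.5, 90.7 and 111 CPM with psilocybin at 3 mg/kg and 75.7, 75.1, 90.9 and 60.9 CPM with vehicle. The value of 274 CPM belongs to replicate 4, the library with the most genes at 0 counts, and the other 3 lay within or below the range of psilocybin at 3 mg/kg. With it the log2 fold change against vehicle was 0.69 (SE 0.332, 95% interval 0.00 to 1.37, edgeR adjusted p = 0.999); without it the value was -0.08. The group mean was 122 ± 102 CPM (SD) with the library and 71.3 CPM without it. Against psilocybin at 3 mg/kg it was 0.41 (SE 0.331, adjusted p = 0.693) with the library and -0.36 without it, and against ketanserin at 3 mg/kg 0.34 (SE 0.331, adjusted p = 1.0) and -0.43, so no direction can be given for C1ql3 in this group.

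In the other groups C1ql3 showed no difference from vehicle that passed the edgeR test after adjustment. It averaged 73.8 ± 20.2 CPM with psilocybin at 1 mg/kg, 91.7 ± 13.4 CPM with psilocybin at 3 mg/kg, 86.5 ± 12.1 CPM with ketanserin at 1 mg/kg, 96.3 ± 25.3 CPM with ketanserin at 3 mg/kg, 78.1 ± 19.6 CPM in the combination at 1 mg/kg and 75.6 ± 12.2 CPM with vehicle (SD, n = 4 each). Each of these groups overlapped vehicle. Genes most like C1ql3 over the 28 libraries were Rabgap1l (r 0.87, and 0.72 without the 2 farthest libraries) and Actr3, a subunit of the actin-nucleating complex (r 0.86, and 0.70).

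C1ql1 and Cbln4 showed the smallest differences. C1ql1, which in mice is also made by oligodendrocyte precursors, ranged from 17.1 to 35.4 CPM over all libraries, with group means between 20.5 ± 2.03 CPM in the combination at 1 mg/kg and 25.0 ± 3.28 CPM with psilocybin at 1 mg/kg. Its highest library, at 35.4 CPM, was a vehicle one (replicate 2), and the vehicle mean was 22.6 ± 8.66 CPM (SD, n = 4). Cbln4 ranged from 4.72 to 12.4 CPM, with group means between 7.46 ± 2.57 CPM with psilocybin at 3 mg/kg and 9.03 ± 2.55 CPM with psilocybin at 1 mg/kg, and 8.83 ± 1.55 CPM with vehicle. Group ranges of both genes overlapped vehicle in every treated group. The genes most like C1ql1 were Ftl1, a ferritin light chain (r 0.87), and Fam162a (r 0.86), those most like Cbln1 Pex16 (r 0.79) and AABR07032821.1 (r 0.78), those most like Cbln2 Nudt4 (r 0.78) and Nefl, the neurofilament light chain (r 0.77), and those most like Cbln4 Slc16a6 (r 0.70) and Ntng1, a netrin-G (r 0.66).

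**Figure D5:**
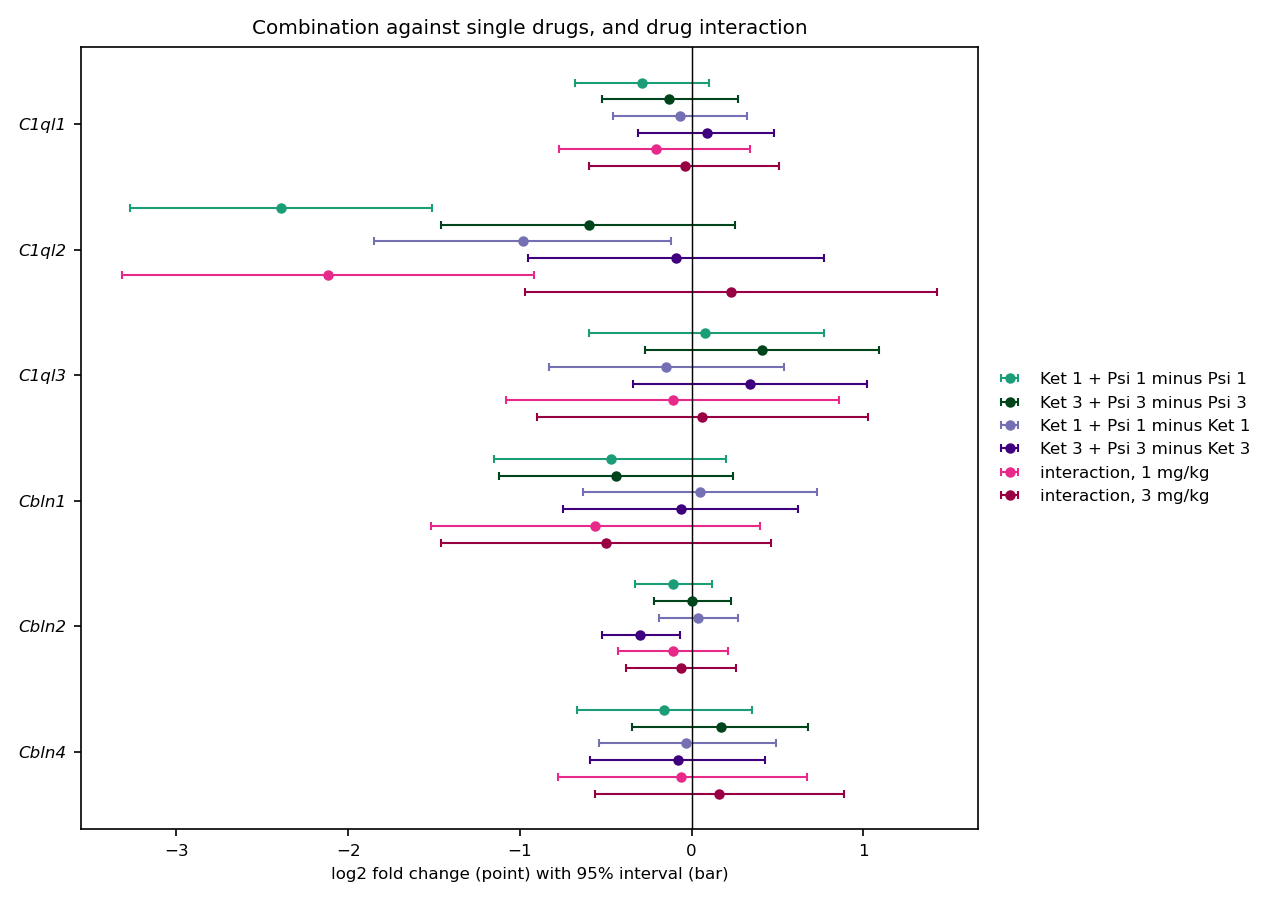
Fitted log2 fold change with 95% intervals for the combination minus psilocybin alone, the combination minus ketanserin alone, and the drug interaction, at 1 and 3 mg/kg. The C1ql2 points at 1 mg/kg (-2.39, -0.98 and -2.12) come from libraries that chose the gene and are descriptions. Their bars make no allowance for that choice and are no test. The C1ql2 points at 3 mg/kg are -0.60, -0.09 and 0.23.

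Read as a set, 0 of the 6 members were called by edgeR where a test is given. No test is given for any member in the contrast that chose the set, nor for C1ql2 in other comparisons with those libraries. The share of all genes called was 0% in 14 of the 16 comparisons. It was 0.00575% (1 gene) for the combination at 3 mg/kg against vehicle and 0.0115% (2 genes) for any difference among the 5 groups. At an unadjusted p under 0.05, 3.13% of all genes passed in the combination at 3 mg/kg against vehicle. Among them were 3 members, C1ql2, C1ql3 and Cbln2. The C1ql3 result rests on a single library of that combination, at 274 CPM. Its log2 fold change against vehicle was 0.69 with that library and -0.08 without it. In psilocybin at 3 mg/kg against vehicle, Cbln2 alone passed, where 3% of all genes did. Cbln2 alone also passed at that level in psilocybin at 3 against 1 mg/kg (3.24% of all genes), in the combination at 3 mg/kg against ketanserin (3.41%) and against the combination at 1 mg/kg (3.3%), and in the joint test of 5 groups (2.46%), leaving out C1ql2 where it chose the set. Under DESeq2 no member was called where a test is given.

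None of the 10 partner genes was called in any comparison either. Their median log2 fold change against vehicle lay between -0.13 with psilocybin at 1 mg/kg and 0.06 in the combination at 3 mg/kg. The kainate receptor subunit Grik2 was the lowest of the list in the combination at 3 mg/kg against psilocybin at 3 mg/kg: it had 37.0, 34.0, 28.8 and 25.1 CPM in the combination and 38.5, 40.8, 38.8 and 39.2 CPM with psilocybin alone. These ranges did not overlap, as for 0.908% of all genes in that direction, with a log2 difference of -0.33 (SE 0.117, 95% interval -0.57 to -0.09, edgeR adjusted p = 0.693). At 1 mg/kg, in the contrast that chose the set, the direction was the other one. Grik2 had 39.5, 35.2, 31.6 and 38.3 CPM in the combination and 30.6, 28.7, 26.2 and 34.8 CPM with psilocybin alone, with overlapping ranges. The log2 difference was 0.27 (SE 0.117, 95% interval 0.03 to 0.51) and did not pass after adjustment (edgeR adjusted p = 0.894). The 2 doses were not tested against each other. Grik2 was also the highest of the list in psilocybin at 3 mg/kg against 1 mg/kg, at 0.39 (SE 0.117, edgeR adjusted p = 1.0). The highest in the combination at 3 mg/kg against psilocybin were Nrxn3 at 0.49 and Dcc at 0.74 (edgeR adjusted p = 0.725 and 0.693). Dcc had 3.74, 1.69, 4.09 and 11.5 CPM in that combination and 1.21, 3.5, 2.29 and 5.51 CPM with psilocybin alone. Nrxn3 had 13.7, 4.53, 17.0 and 30.2 CPM in the combination and 4.4, 10.8, 11.5 and 19.8 CPM with psilocybin alone. Both genes were highest in replicate 4 of the combination, as C1ql3 was. Their remaining values there lay within the range of psilocybin alone, and neither difference is given without that replicate.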

How the data were processed

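RNA from the prefrontal cortex of 28 rats was measured as poly-A RNA-seq. The authors deposited raw counts per gene and FPKM per gene, per the file headers, with rn6 coordinates and gene lengths. Names in the submitters' processing notes are HISAT2 2.0.5, StringTie 1.3.3b, featureCounts 1.5.0-p3 and rn6. Whether reads were assigned by strand: not given in the sources used here. The counts were tested in R 4.3.3 with edgeR 4.0.16: filterByExpr by group (17404 genes kept), TMM scaling, 1 fit over 7 groups (21 residual degrees of freedom), robust quasi-likelihood tests of 16 comparisons, Benjamini-Hochberg adjustment over all tested genes and calls at an adjusted p under 0.05. FPKM was used for levels between genes only. Libraries are counted as biological replicates, per the labels. Members and lists were chosen with earlier results of these data known. Named were the members, the 10 partners (in a comparison, the 2 highest and 2 lowest) and the genes with the highest Pearson r of log2 CPM (prior count 2): 5 for C1ql2 and 2 for each other member. Alternatives were DESeq2 1.42.0, limma-voom (limma 3.58.1), no filter, fits of only the groups compared and each library left out. The tests were checked on simulated counts. A few listed genes are not reported here.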

Additional observations from a re-analysis of the deposited data

Results flagged for a closer look

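C1ql3 in replicate 4 of ketanserin and psilocybin at 3 mg/kg, at 274 CPM, lay far from the other 3 libraries of its group, which had 64.0 to 81.9 CPM. The gap to the nearest was 0.915 of the range of the group, above the critical value of 0.829 for 4 samples in Dixon's test at 95%. It was the only 1 among 42 sets of 4 libraries (6 genes in 7 groups), where chance flags about 1 in 20. The same library had the most genes at 0 counts (19602), and Dcc at 11.5 CPM and Thbs1 at 7.77 CPM were also at their highest there of all 28 libraries. The cause was not tested.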

How the results depend on the processing

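No paired analysis was possible because the replicate numbers were given in accession order and pair no samples. Followed were all fold changes of C1ql2, and those of the other members that were at least their standard error, 34 in all. Of 474 values under alternatives, 468 stayed the same and 6 turned in direction. Where a test is given, a value stayed the same if its direction and its call did, and the lowest adjusted p was 0.281. Where a value is described without a test, it stayed the same if it moved by less than the within-group SD of log2 CPM. No call is given there. With the lowest adjusted p at 0.281, only a turn in direction changed the label of a tested value. C1ql2 varied widely with psilocybin at 1 mg/kg, so the SD used for its described values is wide too. The count of 468 therefore says little about how far the values moved. The 6 that turned were C1ql3 in the combination at 3 mg/kg, with values over left-out libraries from -0.08 to 0.90 against vehicle, -0.36 to 0.63 against psilocybin, -0.43 to 0.55 against ketanserin and -0.13 to 0.85 against the combination at 1 mg/kg, each lowest without its replicate 4 (mean 71.3 CPM, an alternative chosen after seeing the data), and C1ql2 in that combination against ketanserin at 3 mg/kg (-0.28 to 0.27, above 0 without replicate 3 of the combination, at 0.08, or without replicate 2 of ketanserin). Leaving out each library in turn, C1ql2 with psilocybin at 1 mg/kg against vehicle ranged from 0.72 to 1.48, and limma-voom gave 0.69.

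Over all genes, DESeq2 called 3 genes for psilocybin at 1 mg/kg against vehicle, 1 each for ketanserin at 1 and at 3 mg/kg and the combination at 1 mg/kg against vehicle, 1 each for the combinations against psilocybin, 5 for the combination at 3 mg/kg against ketanserin, 6 for psilocybin at 3 against 1 mg/kg and 7 for any difference among 5 groups. Fits of only the groups compared called 1 for each psilocybin dose, 2 for ketanserin at 1 mg/kg, 1 for ketanserin at 3 mg/kg and 2 for the combination at 1 mg/kg, all against vehicle, 1 each for the combination at 3 mg/kg against psilocybin and against ketanserin, and 1 for any difference. Without the filter the combination at 3 mg/kg against vehicle had 0 calls and any difference 1, and with limma-voom both had 0. With each library left out in turn, calls ranged from 0 to 1 for both combinations against vehicle and against psilocybin, for the combination at 3 mg/kg against ketanserin and for the interaction at 1 mg/kg, from 0 to 4 for psilocybin at 3 against 1 mg/kg, and from 1 to 2 for any difference. The likeness of C1ql2 to Penk moved from 0.71 to 0.57 without 2 libraries. With 24 to 296 reads of C1ql2 a library, counting error alone is wide at its low end.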

Other observations

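Other secreted or shed synaptic organizers were read in the same way. Of 17 genes listed (pentraxins, Lgi proteins, thrombospondins, glypicans, Sparc and Sparcl1, Fgf7, Fgf22, Wnt7a and Bdnf), 15 passed the filter on low counts and 0 were called by edgeR in any comparison. Their median log2 fold change against vehicle lay between -0.08 with psilocybin at 3 mg/kg and 0.04 with ketanserin at 3 mg/kg. The highest value between 2 groups was that of Thbs1, a thrombospondin, in the combination at 3 mg/kg, at 2.17 against ketanserin at 3 mg/kg (SE 1.070, edgeR adjusted p = 1.0). Thbs1 had 1.32, 0.338, 0.806 and 7.77 CPM in that combination and 0.587, 0.581, 0.621 and 0.441 CPM with ketanserin at 3 mg/kg. Replicate 4 of the combination lay far above the rest, and the fold change is not given without it.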
